A study of Corbicula fluminea with 24 samples.

Results

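Serum amyloid A (SAA) transcripts were followed in digestive gland RNA of Corbicula fluminea, the Asian clam, which lives in fresh water and filters its food. The transcripts were chosen as the contigs of the count table whose name is SAA2 with any numbered ending, which gave 2 contigs, SAA2.2.2 and SAA2.1.2, of 58291 in all. SAA2.2.2 was selected on its measured levels at the 3 sites, which were already known, so its differences between sites are given below as a description, without a test. The contig with the plain name SAA is not one of the 2 and is used for comparison.

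Clams were held in cages from December to March below the outflow of a wastewater treatment plant (WWTP), below an outflow of urban runoff, and at a reference site. RNA sequencing covered 8 clams per site, with 1 library per clam, and each site had 4 libraries in sequencing lane 3 and 4 in lane 4. No other treatment is given for any group. One caging stands for each site, so site and cage cannot be told apart, and p-values measure the spread between clams of 1 caging.

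SAA is a small secreted protein that binds lipids. In vertebrates it is a main acute-phase protein, made mostly in the liver: inflammatory cytokines acting through NF-kB and STAT factors raise its transcription, and the protein circulates on high-density lipoprotein and binds receptors on phagocytes and endothelium. SAA-like genes are also known from invertebrates, where transcripts have been followed in responses to bacteria. The bivalve digestive gland takes up food, stores lipid and handles foreign compounds. Names used here are those of the table, which gives no sequence, length, description or source species, so every role is one known for the gene of that name in other animals. Numbered endings tell apart contigs that share a name. Contig lengths are not given, so levels are compared between clams and never between contigs.

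Library totals ran from 40.4 M to 97.7 M counts with a median of 61.1 M, and no library repeated another. After removal of contigs with low counts, 57593 contigs were tested, among them both SAA2 contigs and SAA. At an adjusted p under 0.05 in edgeR's quasi-likelihood test, 1.47% of them passed in WWTP against reference (1.01% higher, 0.455% lower), 0.116% in urban runoff against reference (0.0469% higher, 0.0695% lower) and 1.06% in WWTP against urban runoff (0.769% higher, 0.288% lower). All libraries contained transcripts named for digestive enzymes such as the endoglucanase GUN and the amylase Amy.1.2, at levels that differed widely. The first principal component of log2 CPM (reads per contig as a rate of the scaled library total) held 58.8% of the variance and ran against these enzymes, with a correlation of -0.98 with GUN and -0.98 with Amy.1.2. The 6 libraries highest on it came from all 3 sites, namely WWTP individual 41, runoff individuals 53, 56 and 62, and reference individuals 20 and 21. Over the 24 libraries GUN ran from 2.74 to 1077 CPM and Amy.1.2 from 3.33 to 832 CPM.

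SAA2.2.2 was higher at both effluent sites than at the reference site, with wide spread between clams. In WWTP clams its lowest, median and highest levels were 1.5, 7.68 and 18.5 CPM, with 80 to 1231 reads (median 405). In runoff clams they were 1.94, 5.59 and 20.9 CPM, with 126 to 1538 reads (median 315). In reference clams they were 0.432, 1.15 and 4.70 CPM, with 30 to 436 reads (median 81). The groups overlapped: 5 of 8 WWTP clams and 5 of 8 runoff clams lay above the highest reference clam, and all 8 of each lay above the reference median.

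Clam by clam, SAA2.2.2 formed no single level at either effluent site. Of the WWTP clams, individuals 48, 46 and 38 stood at 18.5, 17.9 and 17.1 CPM. Individuals 37 and 42 followed at 8.45 and 6.92 CPM, individuals 41 and 47 both had 3.10 CPM, and individual 33 had 1.5 CPM; the last 3 lay inside the reference range. Among runoff clams, individual 60 had 20.9 CPM and individual 50 had 9.86 CPM. Individuals 55, 63 and 49 lay between 5.03 and 6.46 CPM, and individuals 53, 62 and 56 had 2.85, 2.24 and 1.94 CPM, also inside the reference range. Of the reference clams, 7 lay between 0.432 and 1.74 CPM and individual 30 alone had 4.70 CPM. The 3 lowest runoff clams were also the 3 runoff clams among the 6 highest on the first component.

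**Figure D1:**
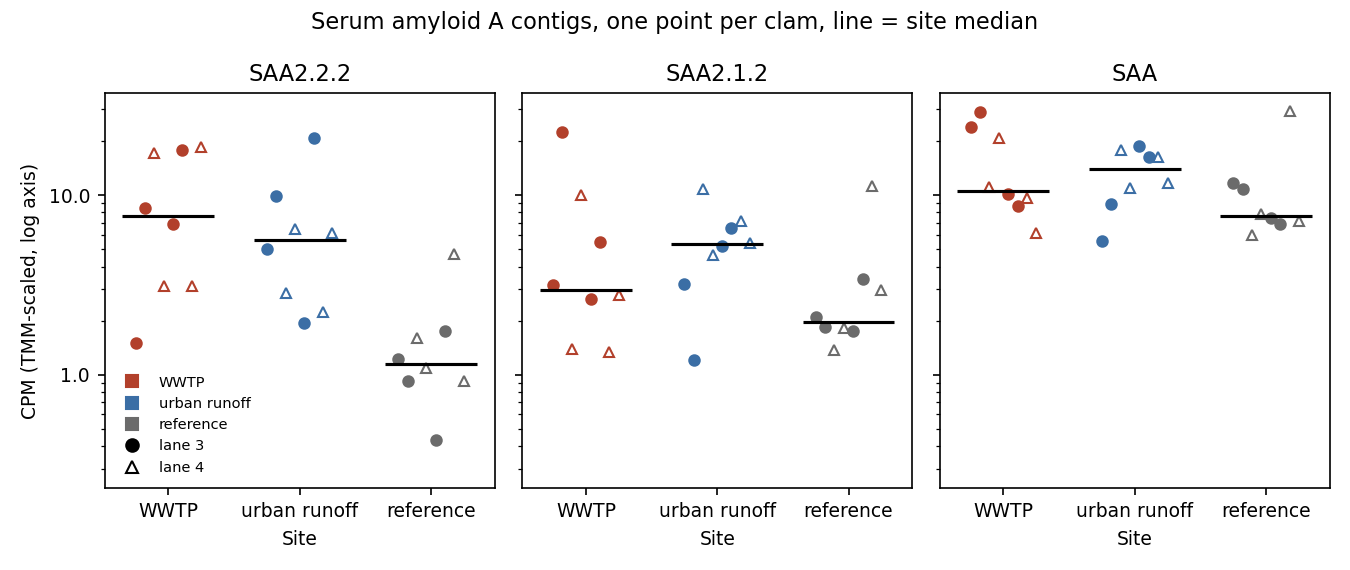
Level of each SAA-named contig in every clam, in CPM on a log axis, with WWTP, urban runoff and reference clams from left to right; filled circles are lane 3, open triangles lane 4, and lines are site medians. SAA2.2.2 had medians of 7.68, 5.59 and 1.15 CPM at the 3 sites, while the values of SAA2.1.2 and SAA overlapped widely, and 1 reference clam stood highest of its site in all 3 panels.

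Counting error was small beside these differences between clams. The lowest value, 0.432 CPM in reference individual 25, had a 95% Poisson interval of 0.291 to 0.616 CPM, and the highest, 20.9 CPM in runoff individual 60, one of 19.9 to 22.0 CPM. Such intervals cover counting error only. Means were 9.57 ± 7.20 CPM in WWTP clams, 6.93 ± 6.23 CPM in runoff clams and 1.58 ± 1.33 CPM in reference clams (SD, n = 8 each). As a description, the fitted log2 fold change was 2.60 for WWTP against reference (SE 0.589, 95% interval 1.38 to 3.81), which is 6.05-fold. For urban runoff against reference it was 2.13 (SE 0.580, 95% interval 0.93 to 3.33), which is 4.38-fold. Both comparisons use the same reference clams. In bulk tissue, fewer cells of a type and less RNA per cell cannot be told apart.

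Within lane 3, SAA2.2.2 averaged 8.69 ± 6.82 CPM in WWTP clams, 9.43 ± 8.31 CPM in runoff clams and 1.08 ± 0.547 CPM in reference clams (SD, n = 4 each). Within lane 4 the averages were 10.5 ± 8.51 CPM in WWTP clams, 4.42 ± 2.18 CPM in runoff clams and 2.07 ± 1.77 CPM in reference clams (SD, n = 4 each). Runoff clams were thus further above reference clams in lane 3, at a log2 fold change of 3.13, than in lane 4, at 1.08; the difference between lanes was not tested. Individual 30 is in lane 4 and sets much of that reference mean. Without it the 7 other reference clams averaged 1.13 ± 0.441 CPM (SD), and the log2 fold changes became 3.08 for WWTP and 2.62 for urban runoff against reference. Leaving out runoff individual 60 lowered the runoff value to 1.64. With the 6 libraries highest on the first component left out, the values were 2.58 for WWTP and 2.46 for urban runoff against reference.

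The effluent sites lay closer to each other in SAA2.2.2. As a description, the fitted log2 fold change for WWTP against urban runoff was 0.46 (SE 0.554), with a 95% interval of -0.68 to 1.61, which holds differences of up to 3.05-fold towards WWTP. No WWTP clam exceeded the highest runoff clam, and 5 of 8 exceeded the runoff median. In lane 3 alone the value was -0.13. Without runoff individual 60 it was 0.95.

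SAA2.1.2, the other SAA2 contig, passed in none of the 3 comparisons. WWTP clams had 1.33, 2.98 and 22.5 CPM at the lowest, median and highest, runoff clams had 1.21, 5.32 and 10.9 CPM, and reference clams had 1.36, 1.97 and 11.3 CPM. The site ranges overlapped almost entirely: 1 WWTP clam and no runoff clam exceeded the highest reference clam, while 6 WWTP and 7 runoff clams exceeded the reference median. The means were 6.16 ± 7.18 CPM in WWTP clams, 5.53 ± 2.86 CPM in runoff clams and 3.31 ± 3.28 CPM in reference clams (SD, n = 8 each). The log2 fold change was 0.89 for WWTP against reference (SE 0.564, adjusted p = 0.518), with a 95% interval of -0.28 to 2.06. It was 0.74 for urban runoff against reference (SE 0.563, adjusted p = 0.767), with a 95% interval of -0.43 to 1.90. For WWTP against urban runoff it was 0.15 (SE 0.560, adjusted p = 0.950), with a 95% interval of -1.0 to 1.31.

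Single clams decided these SAA2.1.2 values. WWTP individual 37 had 22.5 CPM, and the 7 other WWTP clams averaged 3.83 ± 3.06 CPM (SD). Without individual 37 the log2 fold change was 0.21 for WWTP against reference (adjusted p = 0.916) and -0.53 for WWTP against urban runoff (adjusted p = 0.741). Without reference individual 30, which had 11.3 CPM, the reference mean was 2.17 ± 0.730 CPM (SD, 7 clams) and the WWTP log2 fold change 1.5 (adjusted p = 0.207). In lane 4 alone the WWTP value against reference was -0.16. The 95% interval for WWTP against reference held both 0 and changes of up to 4.16-fold.

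The contig named SAA also passed in no comparison. Its lowest, median and highest levels were 6.14, 10.6 and 29.0 CPM in WWTP clams, 5.53, 14.0 and 18.9 CPM in runoff clams, and 6.0, 7.66 and 29.2 CPM in reference clams. No clam of either effluent site exceeded the highest reference clam, again individual 30, and 7 of 8 at each effluent site exceeded the reference median. The log2 fold change was 0.45 for WWTP against reference (SE 0.356, adjusted p = 0.639) and 0.29 for urban runoff against reference (SE 0.355, adjusted p = 0.923). For WWTP against urban runoff it was 0.17 (SE 0.355, adjusted p = 0.910). Without individual 30 the WWTP value against reference was 0.85 (adjusted p = 0.221). The fitted difference from the reference site was thus largest in SAA2.2.2 at both effluent sites, but the differences between contigs were not tested. SAA2.2.2 was selected on its known site levels. The selection can by itself enlarge its fitted differences, so this order is no separate result.

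**Figure D2:**
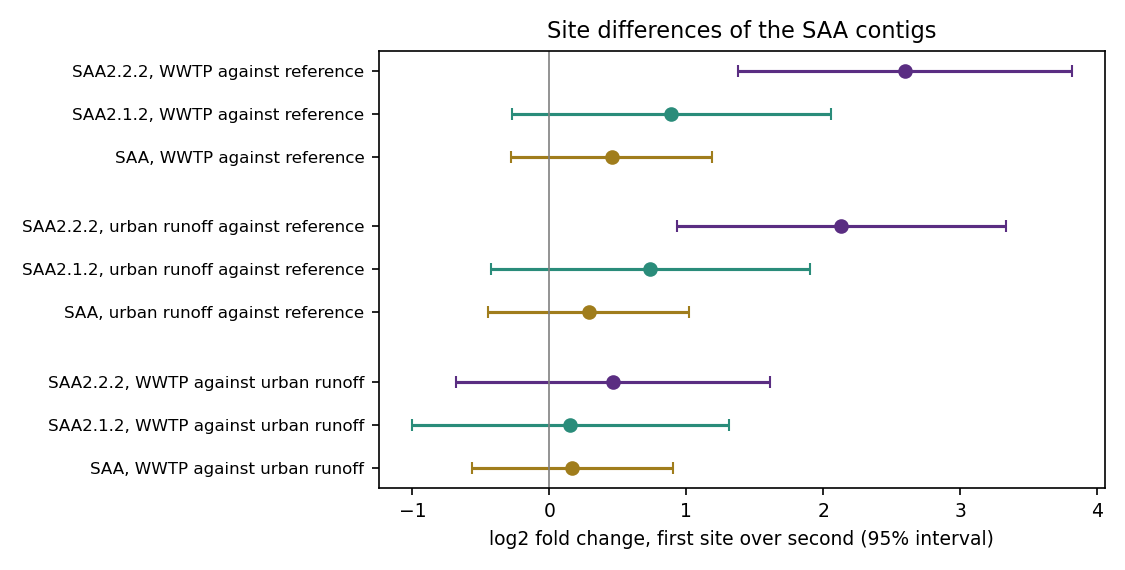
Fitted log2 fold changes (first site over second) of the 3 SAA-named contigs, with 95% intervals as bars. For SAA2.2.2 the values were 2.60 and 2.13 against the reference site, and 0.46 for WWTP against urban runoff, shown as a description; the intervals of SAA2.1.2 and SAA included 0 in every comparison.

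The balance among the SAA-named contigs varied from clam to clam. Of all counts on the 3 contigs, SAA2.2.2 took 33.4 ± 24.3% in WWTP clams, 26.8 ± 17.2% in runoff clams and 10.1 ± 4.27% in reference clams (SD, n = 8 each). The largest share was 67.4% in WWTP individual 48 (95% exact binomial interval 65.2 to 69.6%), and the smallest was 4.47% in reference individual 25 (3.04 to 6.32%). At each effluent site 5 of 8 clams had a share above that of every reference clam, of which the highest was 17.8%. SAA2.1.2 took 16.6 ± 11.2% in WWTP clams, 21.4 ± 8.44% in runoff clams and 19.7 ± 5.99% in reference clams. SAA took 50.0 ± 20.9% in WWTP clams, 51.8 ± 11.9% in runoff clams and 70.2 ± 7.99% in reference clams. In CPM, SAA averaged 14.9 ± 8.41 in WWTP clams, 13.3 ± 4.73 in runoff clams and 10.9 ± 7.67 in reference clams (SD). The 3 shares make up a whole in each clam, so a higher share of SAA2.2.2 lowers those of the others. They are no result separate from the level of SAA2.2.2. These shares compare clams; a contig's share also depends on its length, and how reads matching more than 1 contig were counted is not given in the sources used here.

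**Figure D3:**
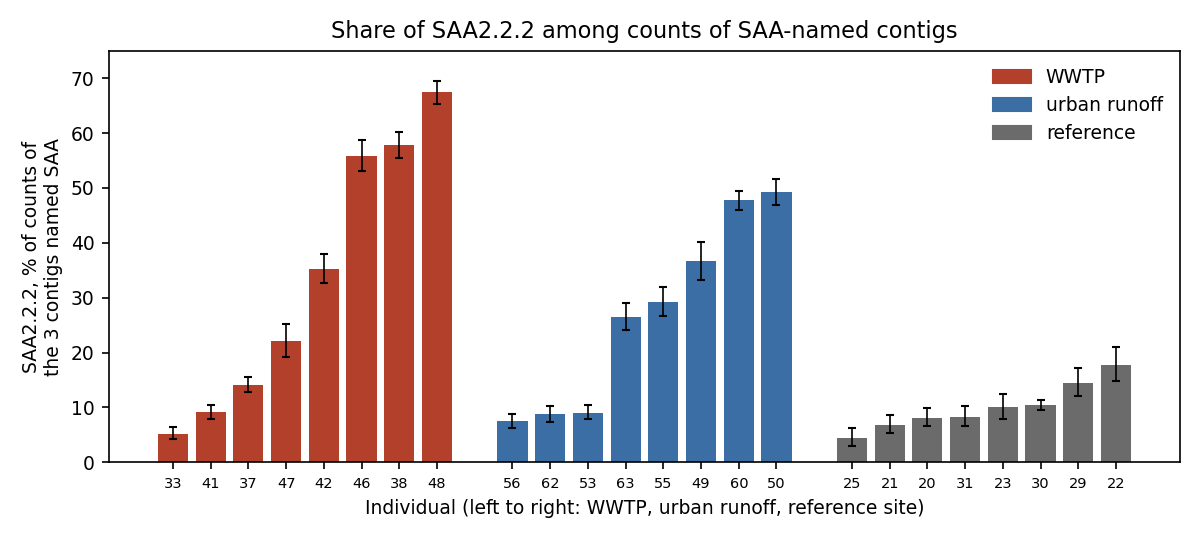
Share of SAA2.2.2 in the counts of the 3 SAA-named contigs, in percent, 1 bar per clam with exact binomial 95% intervals, ordered within WWTP, urban runoff and reference clams from left to right. Reference clams stayed at or under 17.8%, whereas shares reached 67.4% at the WWTP site and 49.3% at the runoff site.

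SAA2.1.2 followed SAA across clams, while for SAA2.2.2 no relation to either was detected over the 24 clams and the values within sites differed in sign. Over the 24 clams, log2 CPM of SAA2.1.2 and SAA had Pearson's r = 0.71 (permutation p = 0.00013, 0.00234 adjusted over 18 correlations) and Spearman's rho = 0.61 (permutation p = 0.00178, adjusted 0.0234). Without the 2 clams farthest from the median of SAA, r was 0.58 (permutation p = 0.00536). It was 0.61 in lane 3 and 0.82 in lane 4. With site means subtracted, r was 0.69 (permutation within sites p = 0.00118, adjusted 0.0106) and rho 0.64, and r was 0.49 without the 2 farthest clams. Within single sites r was 0.65 among WWTP clams, 0.68 among runoff clams and 0.80 among reference clams (n = 8 each, as a description); without individual 30 the value among the 7 other reference clams was -0.02. Among the 18 clams left without the 6 highest on the first component the site-centred r was 0.68 (adjusted p = 0.0686), which did not pass. Reads shared between contigs of similar sequence could not be counted, and their part in this correlation was not tested.

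For SAA2.2.2, r was 0.25 with SAA2.1.2 (rho 0.26, permutation p = 0.238, adjusted 0.358) and 0.10 with SAA (rho 0.11, permutation p = 0.653, adjusted 0.734). With site means subtracted these became 0.07 with SAA2.1.2 and -0.15 with SAA; without the 2 farthest clams r with SAA was -0.50 (permutation within sites p = 0.0422, not adjusted). Within sites, as a description over 8 clams each, r of SAA2.2.2 with SAA was -0.59 among WWTP clams, -0.30 among runoff clams and 0.66 among reference clams. With SAA2.1.2 it was -0.03 among WWTP clams, -0.36 among runoff clams and 0.77 among reference clams. Without individual 30 the reference values were -0.16 with SAA and 0.22 with SAA2.1.2, so the positive values there rest largely on that clam; the difference between sites was not tested. WWTP individual 48 showed the contrast: it had the highest WWTP level of SAA2.2.2, 18.5 CPM, and the lowest WWTP level of SAA, 6.14 CPM. WWTP individual 33 had the lowest WWTP level of SAA2.2.2, 1.5 CPM, and the second highest of SAA, 23.9 CPM.

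**Figure D4:**
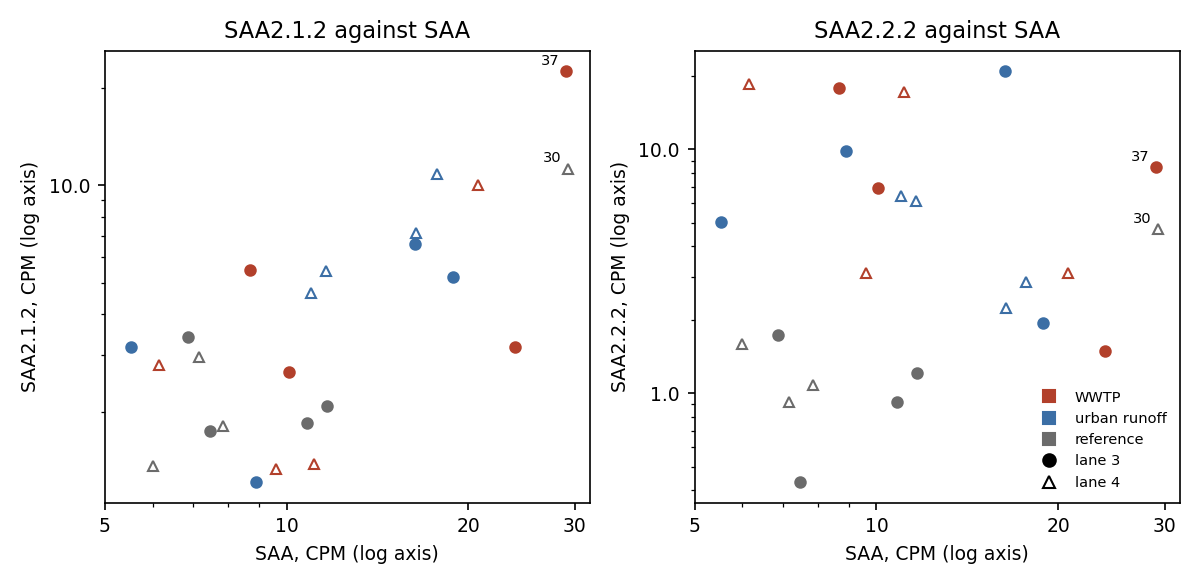
SAA2.1.2 (left) and SAA2.2.2 (right) against SAA, 1 point per clam, in CPM on log axes; filled circles are lane 3 and open triangles lane 4, and individuals 37 (WWTP) and 30 (reference) are numbered. SAA2.1.2 rises with SAA (r = 0.71 over 24 clams), while r was 0.10 for SAA2.2.2.

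All 3 contigs varied more between clams of a site than most contigs did. The pooled within-site SD of log2 CPM was 1.17 for SAA2.2.2, 1.11 for SAA2.1.2 and 0.715 for SAA, against a median of 0.397 over all contigs tested. Only 8.57% of contigs tested varied more than SAA2.2.2, and 9.29% more than SAA2.1.2. None of the 3 contigs passed between sequencing lanes: for lane 4 against lane 3 the log2 fold change was 0.04 for SAA2.2.2, 0.23 for SAA2.1.2 and 0.02 for SAA, each with an adjusted p of 1.0. In that comparison 0.00174% of contigs passed.

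SAA2.2.2 showed no detectable relation to library size over the 24 clams, and it ran against the first component at both effluent sites. Its r with the library total was -0.04 (rho -0.04, permutation p = 0.841), with 0.16 among WWTP clams, 0.66 among runoff clams and -0.06 among reference clams. With the position on the first component r was -0.44 (rho -0.50, permutation p = 0.0323, adjusted 0.0969). With site means subtracted r was -0.51 (rho -0.52, permutation within sites p = 0.0127, adjusted 0.0459), and -0.41 without the 2 clams farthest from the median of the component. It was -0.55 in lane 3 and -0.47 in lane 4. Within sites, as a description over 8 clams each, r was -0.72 among WWTP clams, -0.90 among runoff clams and 0.23 among reference clams; the difference between sites was not tested. The runoff value sets 3 clams high on the component, at 1.94 to 2.85 CPM, against 5 low on it, at 5.03 to 20.9 CPM. Among the 18 clams left without the 6 highest on the component, the site-centred r was -0.26 (adjusted p = 0.600). With single libraries left out the site-centred r was -0.61 to -0.46. The adjusted p was above 0.05 without any 1 of 18 libraries (r = -0.52 to -0.46, adjusted p = 0.0518 to 0.120). These 18 are all those other than WWTP individual 47 and reference individuals 20, 23, 25, 30 and 31. Scaling by library totals gave a site-centred r of -0.39 (permutation within sites, adjusted p = 0.171), which did not pass. With the 6 libraries highest on the component left out, mean SAA2.2.2 levels were 10.5 ± 7.25 CPM in WWTP clams (SD, n = 7), 9.68 ± 6.53 CPM in runoff clams (SD, n = 5) and 1.74 ± 1.52 CPM in reference clams (SD, n = 6).

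**Figure D5:**
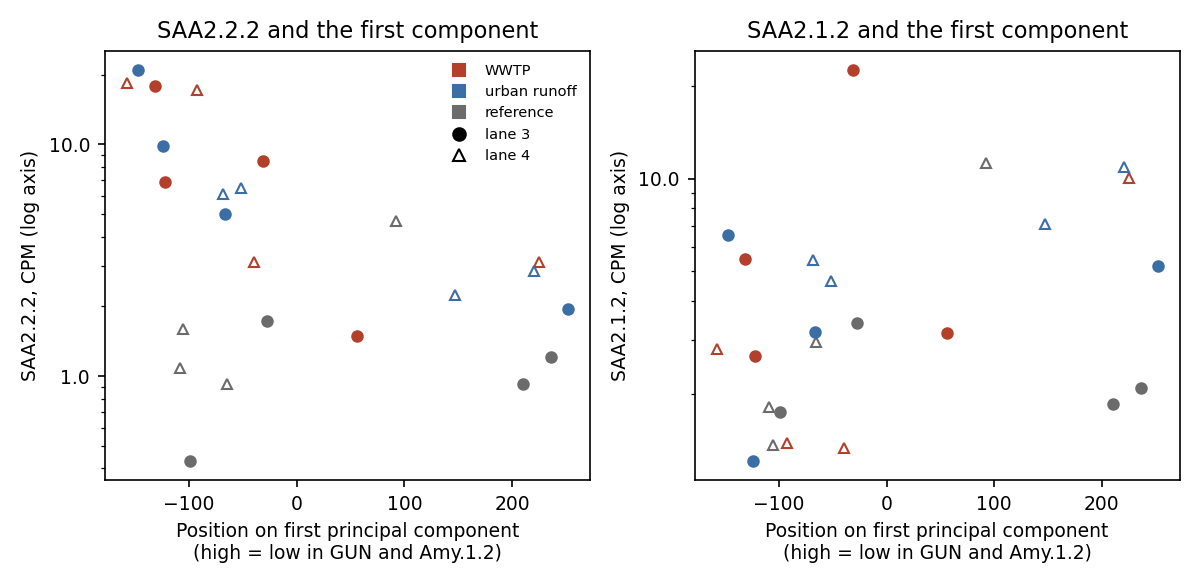
SAA2.2.2 (left) and SAA2.1.2 (right), in CPM on log axes, against the position of each library on the first principal component of all contigs; high positions are libraries low in the enzymes GUN and Amy.1.2. The clams with the highest SAA2.2.2, 17.1 CPM and more, all lie in the low part of the component, while reference clams stay at or under 4.70 CPM along its whole length.

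For SAA2.1.2, r with the library total was -0.58 (rho -0.53, permutation p = 0.00296, adjusted 0.0178), and -0.69 in lane 3 and -0.47 in lane 4. It was -0.73 among WWTP clams, -0.68 among runoff clams and 0.14 among reference clams (n = 8 each). Without the 2 clams with the most extreme totals r was -0.37 (permutation p = 0.087), so the relation rests on them in part. It was -0.53 without runoff individual 50 (adjusted p = 0.0614) and -0.46 without WWTP individual 37 (adjusted p = 0.103). With site means subtracted r was -0.54 (permutation within sites p = 0.0104, adjusted 0.0459), and -0.25 without the 2 farthest clams. That adjusted p was above 0.05 without any 1 of 14 libraries (r = -0.54 to -0.40, adjusted p = 0.0501 to 0.246). With the first component, r of SAA2.1.2 was 0.34 (rho 0.36, permutation p = 0.101, adjusted 0.228).

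Markers of other cell types were present in every library, and none of the 68 markers checked was at 0 in any clam. The 13 haemocyte-type markers summed to 142 to 442 CPM in WWTP clams, 109 to 446 CPM in runoff clams and 119 to 441 CPM in reference clams. The 8 digestive markers summed to 341 to 2112 CPM in WWTP clams, 267 to 1518 CPM in runoff clams and 222 to 1731 CPM in reference clams. The 15 muscle markers summed to 483 to 14411 CPM in WWTP clams, 878 to 5450 CPM in runoff clams and 755 to 4043 CPM in reference clams. The 28 cilia and tubulin markers and the 4 germline and yolk markers overlapped between sites in the same way. As a description over 24 clams of 1 tissue, SAA2.2.2 had r = 0.28 with the digestive sum, 0.37 with the haemocyte sum, -0.48 with the muscle sum, -0.54 with the germline and yolk sum and -0.47 with the cilia sum. SAA2.1.2 had r = -0.41 with the digestive sum and -0.42 with the haemocyte sum. Most single markers of these 2 lists went the other way: 5 of the 8 digestive and 10 of the 13 haemocyte-type markers had positive r with SAA2.1.2. Single markers did not all follow their sums. With SAA2.2.2, 5 of the 8 digestive markers had positive and 3 negative r (-0.39 to 0.36), and of the 13 haemocyte-type markers 7 had positive and 6 negative r (-0.63 for ITA9 to 0.63 for ITA4). SSPO.3.4 carried much of the haemocyte sum, at a mean of 151 CPM (r = 0.36), so that sum cannot be read as haemocyte content. All 15 muscle markers and all 4 germline and yolk markers had negative r with SAA2.2.2. Of the 28 cilia and tubulin markers, 22 had negative and 6 positive r with it (-0.67 to 0.35). The part of cell makeup in the SAA levels was not tested. Reference individual 30, highest of its site in all 3 SAA contigs, had a digestive sum 0.177 times and a haemocyte sum 0.529 times the reference median.

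Among 1266 contigs with a symbol and a mean of at least 2 CPM, those most like SAA2.2.2 over the 24 clams were PMP2, a fatty acid-binding protein (r = 0.70), Iap, an inhibitor of apoptosis (0.64), ITA4, an integrin alpha subunit (0.63), 143BA, a 14-3-3 adaptor (0.61), DHRS4, a carbonyl reductase (0.60), and PCSK6, a proprotein convertase (0.60). These correlations share library, lane and site, and are given as a description without p-values. Site differences alone can raise them. With site means subtracted, the 6 most alike were SLC16A5 of the monocarboxylate transporter family (0.74), the small GTPase RHOG.4.4 (0.71), the dynein light chain DYL1.1.2 (0.68), CDR1 (0.67), the DNA repair glycosylase UNG (0.66) and the Golgi membrane protein TMEM167A (0.66). None of the 6 was on the first list. Ranked by Spearman's rho instead, 5 of the first 6 stayed among the 6 highest, and 3 of the 6 with site means subtracted. The lowest were HEPH.1.2, a copper-dependent ferroxidase, the zinc finger repressor ZBT7A and the beta-tubulin TBB.11.11, all at -0.71.

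PMP2 averaged 3.91 ± 1.95 CPM in WWTP clams, 3.68 ± 2.0 CPM in runoff clams and 1.99 ± 1.02 CPM in reference clams (SD, n = 8 each). Its log2 fold change for WWTP against reference was 0.97 (adjusted p = 0.184), which did not pass. Of contigs without a symbol, contig_03340 (r = 0.84) and contig_36853 (0.78) were most like SAA2.2.2. Over all 57592 other contigs, 47 had r above 0.7 with SAA2.2.2 and 115 had r below -0.7.

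The contigs most like SAA2.1.2 were SAA (r = 0.71), the secreted matrix protein CILP (0.64), the interferon-induced ifi44l.3.3 (0.63), IGA1 (0.59), cilp2.1.2 (0.59) and the lysozyme LYS.1.5 (0.57). With site means subtracted, SAA (0.69), CILP (0.60), ifi44l.3.3 (0.59) and cilp2.1.2 (0.58) stayed among the 6, joined by OIT3.2.2, a zona pellucida domain protein (0.61), and the C-type lectin CD209.1.2 (0.60). Ranked by Spearman's rho instead, 3 of the first 6 stayed among the 6 highest, and 4 of the 6 with site means subtracted. The lowest were IMP2L.2.2, a mitochondrial inner membrane protease subunit (-0.66), the beta-tubulin TBB.6.11 (-0.63) and the peroxisomal import protein PEX14 (-0.61). Without a symbol, contig_19550 (0.83) and LOC105326363.3.7 (0.82) were closest. None of the contigs named for likeness to either SAA2 contig passed in any site comparison; the lowest adjusted p was 0.0512, for contig_36853 in WWTP against reference. Many of them, PMP2 and contig_36853 included, were picked by correlations that hold site differences, and SAA2.2.2 was selected on its site levels. Their site p-values are therefore no independent test.

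Upstream of SAA in vertebrates stand Toll receptors, cytokines, NF-kB and STAT factors, and the list of such signalling genes held 7 tested contigs: Tlr2, TLR4, RELB, stat4, irf2, Mif and TNR3. This list and the lists below were chosen with earlier results of these data known. The shares passing and the p-values of their members are therefore no independent test. In WWTP against reference 1 of the 7 (14.3%, beside 1.47% of all contigs tested) passed, RELB, a subunit of NF-kB, and it fell. It averaged 1.14 ± 0.178 CPM in WWTP clams, 1.59 ± 0.206 CPM in runoff clams and 1.66 ± 0.200 CPM in reference clams (SD, n = 8 each). The log2 fold change was -0.54 against reference (SE 0.110, adjusted p = 0.0209) and -0.47 against urban runoff (SE 0.111, adjusted p = 0.0382). The call against reference held without any single library, at adjusted p of 0.0161 to 0.0430, but not without the 6 libraries highest on the first component (log2 fold change -0.50, adjusted p = 0.0679). The call against urban runoff was lost without any one of runoff individuals 49, 56, 60, 62 and 63 or WWTP individuals 38, 42, 46 and 47 (log2 fold change -0.49 to -0.42, adjusted p = 0.0543 to 0.0871), and without the 6 libraries (-0.48, adjusted p = 0.0909).

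None of the 7 passed in urban runoff against reference; DESeq2 and limma-voom also called 0. At an unadjusted p under 0.05 were 3 of the 7 in WWTP against reference, 1 in urban runoff against reference and 2 in WWTP against urban runoff, beside 14.5%, 9.95% and 13.5% of all contigs tested. By mean CPM the rule for naming took the transcription factor stat4 (18.9 CPM), the receptor Tlr2 (12.2 CPM) and the cytokine Mif (9.33 CPM). At the 3 sites stat4 averaged 21.6 ± 4.88 CPM in WWTP clams, 20.7 ± 8.15 CPM in runoff clams and 14.4 ± 3.93 CPM in reference clams (SD, n = 8 each). For WWTP against reference, their log2 fold changes were 0.59 for stat4 (adjusted p = 0.153), -0.12 for Tlr2 (adjusted p = 0.887) and 1.38 for Mif (adjusted p = 0.559). The median over the 7 was 0.01, as it was over all contigs tested.

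Other contigs named for acute-phase, complement C3, C1q-type and ferritin proteins numbered 11, and none passed in any of the 3 comparisons in edgeR, DESeq2 or limma-voom. None of the 11 had an unadjusted p under 0.05. Their median log2 fold change was 0.10 for WWTP against reference and -0.12 for urban runoff against reference, beside 0.01 and 0.01 over all contigs tested. The ferritin FRIS, an iron store, averaged 5381 CPM over the 24 clams and had a log2 fold change of 0.22 for WWTP against reference (adjusted p = 0.849). C1QTNF3 and c1ql4l, C1q-domain proteins, averaged 124 and 42.3 CPM. The complement component CO3 had a log2 fold change of 0.10 and c3 one of -0.02 for WWTP against reference.

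Of receptors that bind SAA in mammals, Tlr2 and TLR4 stand in the list above. The separate list, drawn up by name for other SAA-binding receptors and their families, held only 3 contigs, LRP1, LRP4.1.2 and LRP4.2.2. All are of the LDL receptor-related family. Binding of SAA by these 3 is not shown by the data, so they cannot be read as SAA receptors. None of the 3 passed in any comparison in edgeR, DESeq2 or limma-voom, and none had an unadjusted p under 0.05. Their correlations with SAA2.2.2 over the 24 clams were 0.25 for LRP1, -0.62 for LRP4.1.2 and -0.66 for LRP4.2.2.

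Of 96 contigs named for antimicrobial effectors and recognition proteins, 1 rose and 1 fell in WWTP against reference, together 2.08% of the list beside 1.47% of all contigs tested. The interferon-induced ifi44_bis averaged 4.11 ± 2.52 CPM in WWTP clams, against 1.40 ± 0.579 CPM in reference clams (SD, n = 8 each), a log2 fold change of 1.55 (SE 0.350, adjusted p = 0.0291). The call was lost without WWTP individual 46 or without reference individual 21, 30 or 31 (log2 fold change 1.37 to 1.54, adjusted p = 0.0533 to 0.0788), and without the 6 libraries highest on the first component (1.28, adjusted p = 0.117). The recognition protein FBCD1.2.6, which has a fibrinogen domain, averaged 6.86 ± 0.746 CPM in WWTP clams, against 8.88 ± 1.1 CPM in reference clams (SD, n = 8 each), a log2 fold change of -0.37 (SE 0.0886, adjusted p = 0.0347). It was lost without any one of WWTP individuals 38, 42, 46 and 48 or reference individuals 20, 21, 22, 23, 30 and 31 (log2 fold change -0.42 to -0.33, adjusted p = 0.0550 to 0.0919), and without the 6 libraries (-0.35, adjusted p = 0.111). With DESeq2, which called 4.04% of all contigs tested, 1 of the 96 passed as higher and 2 as lower; limma-voom called the 2 named here.

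No contig of the 96 passed in the other comparisons in edgeR, DESeq2 or limma-voom. In edgeR, 10.4% of the 96 had an unadjusted p under 0.05 in WWTP against reference and 8.33% (8 contigs) in each of the others, beside 14.5% of all contigs tested in WWTP against reference, 9.95% in urban runoff against reference and 13.5% in WWTP against urban runoff. The median log2 fold changes of the 96 were 0.01 for WWTP against reference, -0.06 for urban runoff against reference and 0.03 for WWTP against urban runoff, beside 0.01, 0.01 and -0.01 over all contigs tested. By mean CPM the rule took the lysozyme LYS3.4.4 (898 CPM), the big defensin BDEF.1.2 (167 CPM) and the ficolin FCN1 (63.7 CPM). BDEF.1.2 averaged 219 ± 171 CPM in WWTP clams, 197 ± 195 CPM in runoff clams and 86.0 ± 85.8 CPM in reference clams (SD, n = 8 each), so the spread within sites was as wide as the means. Over the 24 clams BDEF.1.2 had r = 0.53 with SAA2.2.2, and 0.54 with site means subtracted. LYS3.4.4 had r = 0.40 and FCN1 0.36, and r over the 96 reached down to -0.67, for FGL2.1.3. The log2 fold change of BDEF.1.2 for WWTP against reference was 1.35 (adjusted p = 0.629). The other big defensin, BDEF.2.2, averaged 8.20 ± 4.95 CPM in WWTP clams, 7.32 ± 6.75 CPM in runoff clams and 10.7 ± 8.70 CPM in reference clams (SD). Its r with SAA2.2.2 was 0.26, and 0.42 with site means subtracted.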

How the data were processed

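Counts per assembled contig were used as the authors deposited them, as raw whole numbers in 24 columns, all of which were used. RNA came from digestive gland with a Promega SV kit and TruSeq v2 libraries, per the labels' protocols. The submitters' processing notes name BWA 0.7.12 and SAMtools 1.1. For the assembly, the counting rule and the contig names, the method is not given in the sources used here.

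The members and lists were chosen with earlier results of these data known. Contigs were filtered with filterByExpr (minimum count 10), leaving 57593 of 58291, scaled with TMM and fitted over 3 sites with edgeR 4.0.16 (robust quasi-likelihood, R 4.3.3); p-values were adjusted by Benjamini-Hochberg over all contigs tested, and called under 0.05. A log2 fold change is that of the first-named site over the other. Correlations used log2 CPM with a prior count of 2, and 100000 permutations with scipy 1.17.1. Alternatives were DESeq2 1.42.0, limma-voom (limma 3.58.1), other scalings and filters, a term for lane or first component, 1 lane at a time, 2 sites at a time, and each library left out in turn. The exclusions of 6 libraries together and of reference individual 30 were chosen after seeing the data. The fit was tested on simulated data. Named contigs were the 6 highest and 3 lowest in likeness, up to 2 without a symbol, and from each of 4 pathway lists the members passing and the 3 with the highest mean CPM; CO3, c3 and the LRP contigs are named besides. From the lists, 7 contigs whose names matched by letters only were left out by name. Figures were drawn with matplotlib 3.10.9.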

Additional observations from a re-analysis of the deposited data

Results flagged for a closer look

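In all, 5 values of the SAA contigs stood apart from the rest of their site by Dixon's ratio, the gap to the next clam over the range of the site, which exceeded its 95% critical value for 8 clams. In all, 9 sets of 8 clams were examined, and with normally distributed values chance alone gives about 1 in 20 such cases. The ratio was taken on CPM; on log2 CPM it was lower in all 5 cases, and stayed above the critical value for SAA2.1.2 and SAA in reference individual 30. Runoff individual 60 had 20.9 CPM of SAA2.2.2, with the next runoff clam at 9.86 CPM (ratio 0.583, 0.316 on log2 CPM). Reference individual 30 had 4.70 CPM of SAA2.2.2, with the next reference clam at 1.74 CPM (ratio 0.693, 0.416 on log2 CPM). WWTP individual 37 had 22.5 CPM of SAA2.1.2, with the next WWTP clam at 10.03 CPM (ratio 0.589, 0.286 on log2 CPM). Reference individual 30 also had 11.3 CPM of SAA2.1.2, with the next at 3.40 CPM (ratio 0.794, 0.567 on log2 CPM), and 29.2 CPM of SAA, with the next at 11.7 CPM (ratio 0.756, 0.581 on log2 CPM). Of the 5 values, 3 belong to individual 30.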

How the results depend on the processing

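SAA2.2.2 kept its direction against the reference site under every alternative run: the log2 fold change was 1.96 to 3.0 for WWTP and 1.08 to 3.13 for urban runoff, and 2.37 to 3.08 and 1.64 to 2.62 with single libraries left out. Directions of values that did not pass turned in some cases; the cause was not tested. In lane 3 alone SAA2.2.2 was -0.13 for WWTP against urban runoff. In lane 4 alone SAA2.1.2 was -0.16 and SAA -0.079 for WWTP against reference, and -0.85 and -0.26 for WWTP against urban runoff. Limma-voom gave -0.31 for SAA2.1.2 in WWTP against urban runoff and -0.024 for SAA between lanes. Without the 6 libraries highest on the first component SAA was -0.0198 for urban runoff against reference. With single libraries left out, WWTP against urban runoff ran from -0.53 to 0.37 for SAA2.1.2 and from -0.044 to 0.27 for SAA. Lane 4 against lane 3 ran from -0.24 to 0.31 for SAA2.2.2, from -0.16 to 0.62 for SAA2.1.2 and from -0.26 to 0.15 for SAA.

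Contigs passing in WWTP against reference numbered 846, and 165 with library totals, 522 with the upper quartile, 2328 with DESeq2 and 206 to 1342 with single libraries left out. In urban runoff against reference 67 passed, and 25 with the upper quartile, 825 with DESeq2, 125 with limma-voom and 0 to 198 with single libraries left out. Scaling by library totals gave 0 in edgeR, with 4181 at an unadjusted p under 0.05; without runoff individual 50 edgeR also gave 0, with 5026. In WWTP against urban runoff 609 passed, and 1968 with DESeq2 and 112 to 1010 with single libraries left out. The calls of RELB, ifi44_bis and FBCD1.2.6 kept their direction under every alternative but did not pass in either lane alone, where 4 clams per site remain. With 2 sites in the fit the adjusted p was 0.0667 for ifi44_bis, 0.0680 for FBCD1.2.6 and 0.0906 for RELB in WWTP against urban runoff. With library totals it was 0.0608 for ifi44_bis and 0.0934 for FBCD1.2.6, and with the upper quartile 0.0699 for FBCD1.2.6.

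The correlation of SAA2.2.2 with the digestive marker mean log2 CPM, 0.15 over all libraries (permutation p = 0.495; 0.19 with site means subtracted), turned to -0.0191 with library totals and to -0.16 (-0.17 with site means subtracted) without the 6 libraries, and its site-centred r with SAA turned to 0.086. For SAA2.1.2 and the library total r was -0.55 without them, no longer passing, and -0.66 to -0.46 with single libraries left out. Left-out libraries gave -0.15 to 0.039 for SAA2.2.2 and the library total, -0.55 to -0.39 for SAA2.2.2 and the first component, and -0.12 to 0.16 for SAA2.2.2 and SAA2.1.2 with site means subtracted. No paired analysis was possible because each clam was caged at 1 site and replicate numbers only follow accession order. With 8 clams per site and the spread seen, the intervals of SAA2.1.2 against reference allow changes up to 4.16-fold.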

Other observations

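The relation of SAA2.1.2 to the first component differed in size between lanes. Among the 12 lane 4 libraries r was 0.81 (permutation p = 0.00192), and among the 12 lane 3 libraries it was -0.10 (permutation p = 0.765); these p-values are not adjusted, and the difference between lanes was not tested. With the mean log2 CPM of the digestive markers, r of SAA2.1.2 was -0.72 in lane 4 (permutation p = 0.00565) and 0.32 in lane 3 (permutation p = 0.320).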
